A study of Mus musculus with 6 samples.

Results

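The matrix metalloproteinases, the ADAMTS proteases and their tissue inhibitors were described here across endothelial cells sorted from the skin of mice that lack the apelin receptor APJ and of wild-type mice. The set held 46 of the 20018 gene symbols named on the array, listed by symbol: 18 matrix metalloproteinases, 5 inhibitors (Timp1 to Timp4 and Reck), 18 ADAMTS proteases, and 5 further protease genes (Adam9, Adam12, Adam15, Adam19 and Plau). RNA was measured on 6 one-colour Agilent arrays, 3 from APJ KO samples and 3 from wild-type samples. The strain was C57Bl/6J in both groups, the cells were sorted by flow cytometry and received no treatment afterwards, and 0.1 µg of RNA per sample was labelled. The labels number 1 mouse per sample and give neither the deleted part of the gene nor the surface markers of the sort. The APJ KO cells therefore stand for loss of the receptor only as far as the genotype label goes. No source used here states more on the number of animals, so a p-value covers just the spread among these 6 samples, which may be technical.

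Matrix metalloproteinases are zinc enzymes that are made as inactive precursors and cut collagens, laminins and other matrix proteins once their propeptide is removed. The TIMPs bind the active site and block them, and Timp3 also blocks several ADAM and ADAMTS enzymes. ADAMTS proteases are secreted and cut proteoglycans, procollagens and other matrix proteins, whereas ADAM proteases sit in the membrane and shed the outer parts of other proteins. In growing vessels these enzymes loosen the basement membrane and release growth factors from the matrix, and the inhibitors limit that process.

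Levels are given as log2 intensity relative to the 75th percentile of the same array, so that 0 is the level of that percentile, and differences are APJ KO minus wild type on the same log2 scale. They are compared within a probe, never between genes, because probes differ in brightness. A probe was called detected on an array when the scanner software marked it well above background. The share of the 55681 probes detected per array was 50.3% to 58.0%, and the intensity at that percentile was 250.4 to 398.4. The arrays came from 2 slides, with replicates 1 and 2 of both genotypes on slide 1 and replicate 3 of both on slide 2. Aplnr, the gene of the apelin receptor on chromosome 2, read 1.90, 1.72 and 2.26 in the APJ KO samples, against 3.35, 3.78 and 3.83 in the wild-type samples. It fell to 30.9% of the wild-type signal, a log2 difference of −1.69 ± 0.19 (SE, n = 3 each; limma adjusted p = 0.0238). All 3 APJ KO samples lay below all wild-type samples, yet the probe stayed well above background in every one. Its adjusted p was 0.0780 when the replicate number was a block, and between 0.0349 and 0.131 when single arrays were left out. Of those 6 fits only the one without APJ KO replicate 3 kept it under the threshold of 0.05. All 15 endothelial markers were detected on all 6 arrays. The 9 lymphatic endothelial markers were too, and the difference was above 0 for 9 of 9 of them, with a median of 0.50. With slide as a block 2 of the 9 rose past the threshold, where 1.2% of everything tested passed. With genotype alone or the replicate block 0 of the 9 did. The groups did not overlap for 6 of the 9, 66.7%, against 12.2% of everything tested.

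Of the 46 genes, 29 were detected on all 6 arrays, 3 on some and 14 on none. The 14 undetected genes were 9 matrix metalloproteinases (Mmp3, Mmp7, Mmp8, Mmp9, Mmp10, Mmp12, Mmp13, Mmp16 and Mmp19) and 5 ADAMTS proteases (Adamts3, Adamts5, Adamts6, Adamts19 and Adamts20). Of these 9 metalloproteinase genes 6 lie in 1 cluster on mouse chromosome 9. All 10 protein-coding genes in that stretch from Mmp13 to Mmp7 are named as metalloproteinases, and of the 9 with a probe none was detected on any array in either genotype. The cluster holds collagenases, stromelysins, matrilysin and macrophage elastase, enzymes known for being switched on by cytokines, growth factors and injury. The last 100 bases before the annotated start of 5 cluster genes, and of Mmp14 and Timp3, 2 members detected on all arrays, are printed as examples. The 5 were picked because they hold an AP-1 motif. The sequences are the gene strand 5′ to 3′, here the plus strand, from RefSeq on build GRCm38.p6: Mmp13 chr9:7272414-7272513, Mmp3 chr9:7445722-7445821, Mmp10 chr9:7502242-7502341, Mmp7 chr9:7691990-7692089, Mmp12 chr9:7347274-7347373, Mmp14 chr14:54431498-54431597 and Timp3 chr10:86300312-86300411. Capitals mark the AP-1 motif TGAGTCA or its reverse complement TGACTCA, the TATA motif TATAAA or TTTATA, and the GC box GGGCGG or CCGCCC, and no match overlaps another in these windows.
Mmp13: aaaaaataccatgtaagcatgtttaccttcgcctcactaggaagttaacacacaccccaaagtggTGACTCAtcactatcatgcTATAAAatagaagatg
Mmp3: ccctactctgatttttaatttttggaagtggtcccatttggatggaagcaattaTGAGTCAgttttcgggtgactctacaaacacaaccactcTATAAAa
Mmp10: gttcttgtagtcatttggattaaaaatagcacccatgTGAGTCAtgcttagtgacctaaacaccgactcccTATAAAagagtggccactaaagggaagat
Mmp7: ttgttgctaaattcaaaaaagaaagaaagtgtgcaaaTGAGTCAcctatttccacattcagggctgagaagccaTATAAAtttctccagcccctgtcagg
Mmp12: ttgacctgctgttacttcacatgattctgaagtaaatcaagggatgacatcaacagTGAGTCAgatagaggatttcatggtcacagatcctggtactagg
Mmp14: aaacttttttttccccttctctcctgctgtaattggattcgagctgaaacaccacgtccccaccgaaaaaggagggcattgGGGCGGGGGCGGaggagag
Timp3: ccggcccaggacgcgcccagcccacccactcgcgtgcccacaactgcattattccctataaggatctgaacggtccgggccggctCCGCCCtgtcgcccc

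The first 4 of these promoters carry an AP-1 motif followed by a TATA motif, the fifth an AP-1 motif alone, and the last 2 only GC boxes, a pair of adjacent matches in Mmp14 and a single one in Timp3. AP-1 is the Fos and Jun transcription factor dimer, and the TATA motif is a site at which the transcription machinery assembles. Counted back from the annotated start, where −1 is the last base printed, the AP-1 match began at −35 in Mmp13, at −46 in Mmp3 and at −63 in both Mmp10 and Mmp7. In Mmp12 the AP-1 match began at −44 of the second annotated promoter, and the first one held no match. The second Mmp7 promoter and that of Mmp8, the other undetected cluster member with an entry, held none of the 3 motifs. RefSeq entries were at hand for 29 of the 46 members, with 34 promoters in all. Mmp2, Adamts7, Adamts16 and Plau are among the 17 members without an entry. In the 250 bases before the start, on both strands, 17.6% of the member promoters held the AP-1 motif, against 4.46% of all 32851 promoters in the table. The TATA motif stood in 14.7% of the member promoters and 12.4% of all promoters, the GC box in 52.9% and 32.7%, and AP-1 with TATA in 11.8% and 0.721%. Of the 8 undetected members with an entry, 5 held the AP-1 motif, 4 the TATA motif and 2 the GC box. All of those with an AP-1 or TATA motif were genes of the chromosome 9 cluster. The undetected members with an entry outside the cluster were Adamts3 and Adamts20. They held the GC box and neither other motif, with G and C shares of 78.0% and 76.4%. Of the 21 detected members with an entry, 1 held the AP-1 motif (Adam19), 1 the TATA motif (Adamts1) and 16 the GC box. The share of G and C was 37.2% to 78.0% in the promoters of the undetected members, with a median of 40.2%, and 50% to 79.2% in those of the detected members, with a median of 63.2%. Over all genes on the array with a promoter entry, 53.5% of the 129 genes that held both the AP-1 and the TATA motif were undetected, against 24.5% of the 15760 genes without both. These matches describe letters in the window only, and binding of the factors was not measured.

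Among the members, 63.0% were detected on all 6 arrays and 30.4% on none, against 65.0% and 24.8% of all named genes. All 5 inhibitors were detected on every array, as were all 5 ADAM and Plau genes. Of the 18 metalloproteinases 9 were detected on every array and 9 on none. Among the 18 ADAMTS genes 10 were detected on every array, 5 on none and 3 on some. Adamts15 was detected in 3 APJ KO and 2 wild-type samples, and Adamts2 and Adamts12 each in 2 APJ KO samples and 1 wild-type sample. The 14 undetected genes read between −7.46 and −4.80. Mmp9, the gelatinase B that neutrophils and macrophages release, read −6.06, −6.40 and −6.28 in the APJ KO samples, against −6.55, −6.31 and −6.30 in the wild-type samples. These signals are bounds set by background and carry no order, so no difference was fitted for these genes.

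**Figure D1:**
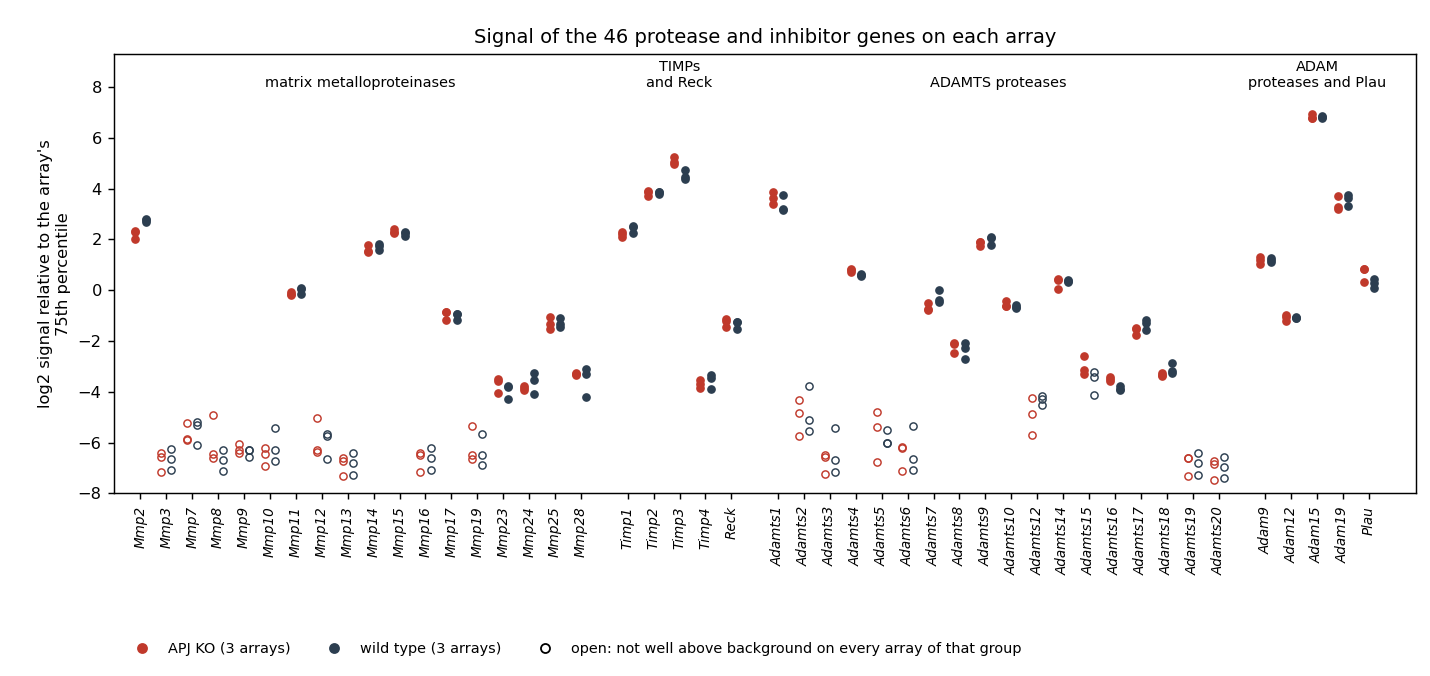
Level of each member on each array (log2 intensity relative to the 75th percentile of the array), grouped by role, with APJ KO and wild-type samples as separate points, APJ KO left of wild type. Open points mark a group in which the gene was not well above background on every array, and the 14 genes detected on no array lie between −7.46 and −4.80.

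Testing covered 24243 genes and unnamed probes that were detected on all arrays of at least 1 group, and 30 of the 46 members were among them. In the limma fit with genotype alone, 0.557% of everything tested passed an adjusted p of 0.05, with 90 higher and 45 lower in APJ KO cells, and 0 of the 30 members did. With slide as a block the share was 1.2% of everything tested and 1 of 30 members, Timp3. Blocking on the replicate number, 4 features were higher and 1 lower, and 0 members passed. At an unadjusted p under 0.05 there were 4 members (Timp3, Mmp2, Adamts16 and Adamts7), and 8.01% of everything tested. The APJ KO and wild-type samples did not overlap for 5 of the 30 members, 16.7%, against 12.2% of everything tested. Timp3, Adamts16 and Adamts4 stood higher in all 3 APJ KO samples and Mmp2 and Adamts7 lower. The difference was above 0 for 15 members and below 0 for 15, with a median of −0.0034, against a median of −0.019 over all features. It ranged between −0.54 and 0.57, and for 22 of the 30 members it was under 0.25 in size. The upper end was Adamts15, which entered the fit through APJ KO alone. In RNA from a sorted population, fewer cells of a type and less RNA per cell cannot be told apart in any of these values.

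**Figure D2:**
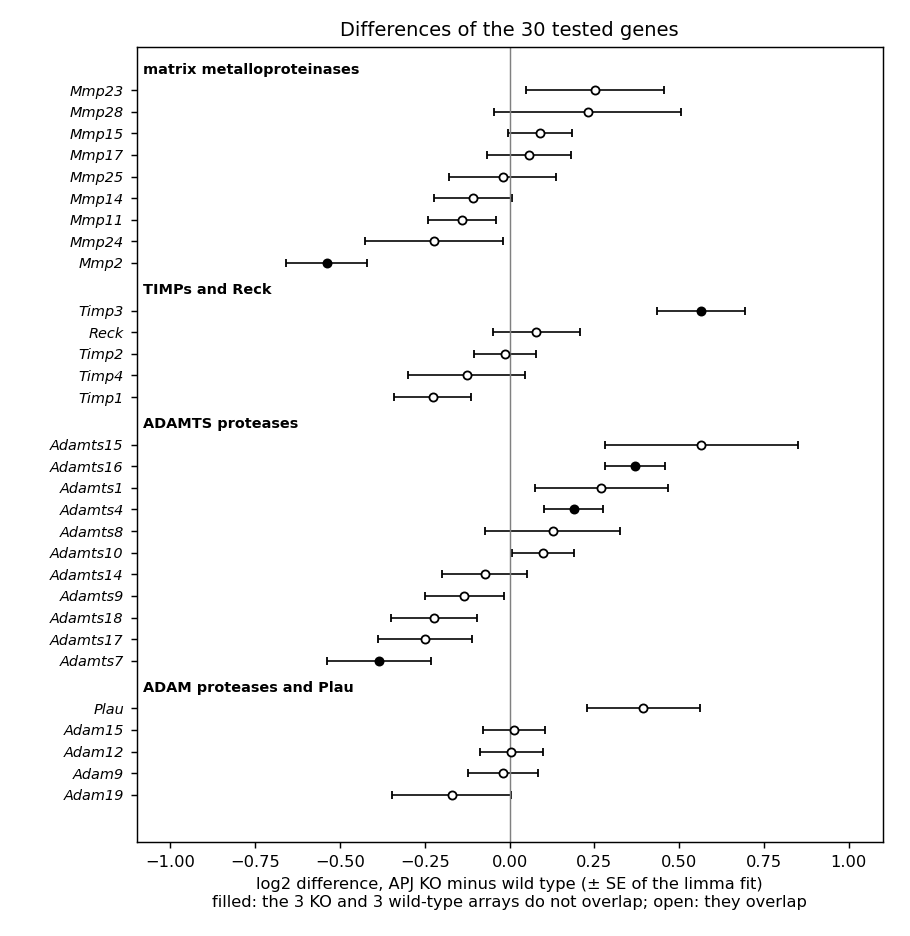
Log2 difference, APJ KO minus wild type, of each of the 30 tested members with the standard error of the limma fit, grouped by role. Filled points mark the 5 genes whose groups do not overlap, and 22 of the 30 genes differ by less than 0.25.

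Among the inhibitors, Timp3 had the largest difference. Timp3, which is kept in the matrix and blocks metalloproteinases as well as Adam17 and several ADAMTS enzymes, read 4.97, 5.04 and 5.25 in the APJ KO samples, against 4.39, 4.44 and 4.73 in the wild-type samples. All 3 APJ KO samples were above all 3 wild-type samples, and replicate 3 was the highest in both groups. The group means were 5.09 ± 0.15 in APJ KO and 4.52 ± 0.18 in wild type (SD, n = 3 each), a difference of 0.56 ± 0.13 (SE), or a signal ratio of 1.48. Its limma adjusted p was 0.187 with genotype alone, and the exact two-sided permutation test over the samples gave 0.1, the smallest p that 3 against 3 samples allow. With slide as a block the adjusted p was 0.0317, and with the replicate block 0.0873. Within slide 1 the difference was 0.59 and within slide 2 it was 0.52. The cells also carried Timp1 and Timp2, the secreted inhibitors that bind pro-Mmp9 and pro-Mmp2. Timp1 read 2.09, 2.22 and 2.30 in the APJ KO samples, against 2.25, 2.51 and 2.53 in the wild-type samples, and the groups overlapped. Its difference was −0.23 ± 0.11 (adjusted p = 0.778), chosen for mention after its values were seen. Timp2 differed by −0.012 (SE 0.091), Timp4 by −0.13 and Reck, a membrane-anchored inhibitor, by 0.078, none of them by more than its standard error. Timp4 was dim, at −3.84 to −3.53 in APJ KO and −3.90 to −3.32 in wild type.

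Of the 9 tested metalloproteinases, 4 had a difference above 0 and 5 below, with a median of −0.021 against −0.019 over all features. Mmp2, the gelatinase A that cuts basement membrane collagen, read 2.00, 2.31 and 2.35 in the APJ KO samples, against 2.77, 2.69 and 2.82 in the wild-type samples. Every APJ KO sample was below every wild-type sample, and APJ KO replicate 1 was the lowest. The means were 2.22 ± 0.19 in APJ KO and 2.76 ± 0.067 in wild type (SD), a difference of −0.54 ± 0.12 (SE), which places APJ KO at 68.8% of the wild-type signal. The limma adjusted p was 0.170, with slide as a block 0.0954, and the exact permutation p was 0.1. The differences within slides were −0.58 for slide 1 and −0.47 for slide 2. Fibroblasts are another source of Mmp2 in skin: 8 of their 12 markers were detected on all 6 arrays and Dpt on none. The summed fibroblast marker signal, as linear intensity over the 75th percentile, was 14.0, 8.35 and 9.43 in the APJ KO samples, against 8.74, 11.9 and 9.37 in the wild-type samples. A few bright markers carry this sum. Of the 10 tested fibroblast markers 4 had a difference above 0 and 6 below, with a median of −0.14, none past the threshold. Postn (−1.09), Fap (−0.70), Dcn (−0.57) and Twist2 (−0.51) were lowest, and Dlk1 (0.30) and Col3a1 (0.20) were highest. Postn and Twist2 were each detected on 2 APJ KO and 3 wild-type arrays. Both entered the fit through wild type alone, a filter that favours a difference below 0. Mural cell markers summed to 3.90 to 4.77 in APJ KO and 3.60 to 4.76 in wild type, with Myh11 detected on no array. Of the 7 tested mural markers 4 were above 0 and 3 below, with a median of 0.12. Notch3 was lowest at −0.84, with Pdgfrb at −0.57, and Abcc9 was highest at 0.42. The part of these cells in the Mmp2 values was not tested.

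Of the membrane-type enzymes none passed the test. Mmp14, which activates pro-Mmp2 together with Timp2, read 1.80, 1.55 and 1.53 in the APJ KO samples and 1.83, 1.76 and 1.60 in the wild-type samples, and differed by −0.11 ± 0.11. Mmp15 read 2.24, 2.31 and 2.42 in APJ KO and 2.13, 2.27 and 2.30 in wild type, and differed by 0.089 ± 0.095. Neither difference was larger than its standard error, and in both genes the groups overlapped. Mmp17 and Mmp25, which are held in the membrane by a lipid anchor, differed by 0.057 and −0.021. Mmp11, which is activated inside the cell by furin-like enzymes, differed by −0.14. Mmp23, Mmp24 and Mmp28 read between −4.30 and −3.09, close to the lowest signal called well above background, and differed by 0.25, −0.22 and 0.23.

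Among the 11 tested ADAMTS genes 6 differences were above 0 and 5 below, with a median of 0.099. Adamts16 read −3.57, −3.42 and −3.48 in the APJ KO samples, against −3.88, −3.92 and −3.78 in the wild-type samples. The groups did not overlap, and all 6 values were dim. Its difference was 0.37 ± 0.090 (SE; limma adjusted p = 0.216, exact permutation p = 0.1), and it was 0.053 after normexp background correction. A second Adamts16 probe was detected on no array. Adamts7, an enzyme that cuts the cartilage protein Comp, read −0.78, −0.72 and −0.50 in the APJ KO samples, against −0.47, −0.39 and 0.010 in the wild-type samples. Each APJ KO sample was below all wild-type samples, by a narrow margin between APJ KO replicate 3 and wild type replicate 1. The difference was −0.39 ± 0.15 (SE), with a limma adjusted p of 0.589, or 0.0999 with slide as a block, and it was −0.24 without wild type replicate 3.

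The aggrecanases and the procollagen-processing enzymes included both detected and undetected genes. Adamts4, an aggrecanase, read 0.85, 0.82 and 0.71 in the APJ KO samples, against 0.66, 0.61 and 0.54 in the wild-type samples. All APJ KO values were higher, by 0.19 ± 0.087 (SE; limma adjusted p = 0.706), and the gene is outside the naming rule, picked after its values were seen, as are Adamts1 and Adamts15. Adamts5, the other main aggrecanase, was detected on no array. Adamts1, which cuts versican, read 3.63, 3.86 and 3.40 in the APJ KO samples, against 3.74, 3.18 and 3.16 in the wild-type samples, a difference of 0.27 ± 0.20 with the groups overlapping. This difference was 0.46 when wild type replicate 1 was left out, 0.17 when wild type replicate 3 was, and 0.15 when APJ KO replicate 2 was. Adamts15, whose probe was dim, differed by 0.57 ± 0.28 (SE; limma adjusted p = 0.778), by 0.30 without wild type replicate 2, by 0.36 without APJ KO replicate 3 and by 0.15 after normexp background correction. Detected in 3 APJ KO and 2 wild-type samples, it entered the fit through APJ KO alone, a filter that favours a difference above 0. It read −3.13, −3.31 and −2.59 in the APJ KO samples, against −3.20, −4.11 and −3.42 in the wild-type samples, with the groups overlapping. Of the procollagen processing enzymes, Adamts14 was detected on all arrays and differed by −0.073, Adamts2 was detected on 3 arrays and Adamts3 on none. Adamts9, which endothelial cells are known to express, differed by −0.13, and Adamts10 and Adamts17, both tied to fibrillin microfibrils, by 0.099 and −0.25. Adamts8 and Adamts18 differed by 0.13 and −0.22.

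Among the 4 ADAM genes no difference was larger than its standard error. Adam15, a disintegrin known from endothelial cell junctions, read 6.77, 6.96 and 6.79 in the APJ KO samples and 6.79, 6.87 and 6.81 in the wild-type samples, a difference of 0.013 ± 0.091 (SE). Adam9 differed by −0.019, Adam12 by 0.0055 and Adam19 by −0.17. Plau, the urokinase that turns plasminogen into plasmin and so starts activation of several pro-metalloproteinases, read 0.84, 0.83 and 0.35 in the APJ KO samples, against 0.43, 0.30 and 0.096 in the wild-type samples. The groups overlapped through replicate 3 of APJ KO, and each slide had the APJ KO sample or samples higher. The difference was 0.39 ± 0.17 (SE; limma adjusted p = 0.635, or 0.108 with slide as a block), 0.47 within slide 1 and 0.25 within slide 2, and this gene too was picked after its values were seen. Of 14 members with several probes, 6 had at least 2 tested. In Mmp11, Mmp28 and Reck the probes had the same sign, and in Adam12, Adamts8 and Timp2 they did not, all within −0.17 to 0.13.

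**Figure D3:**
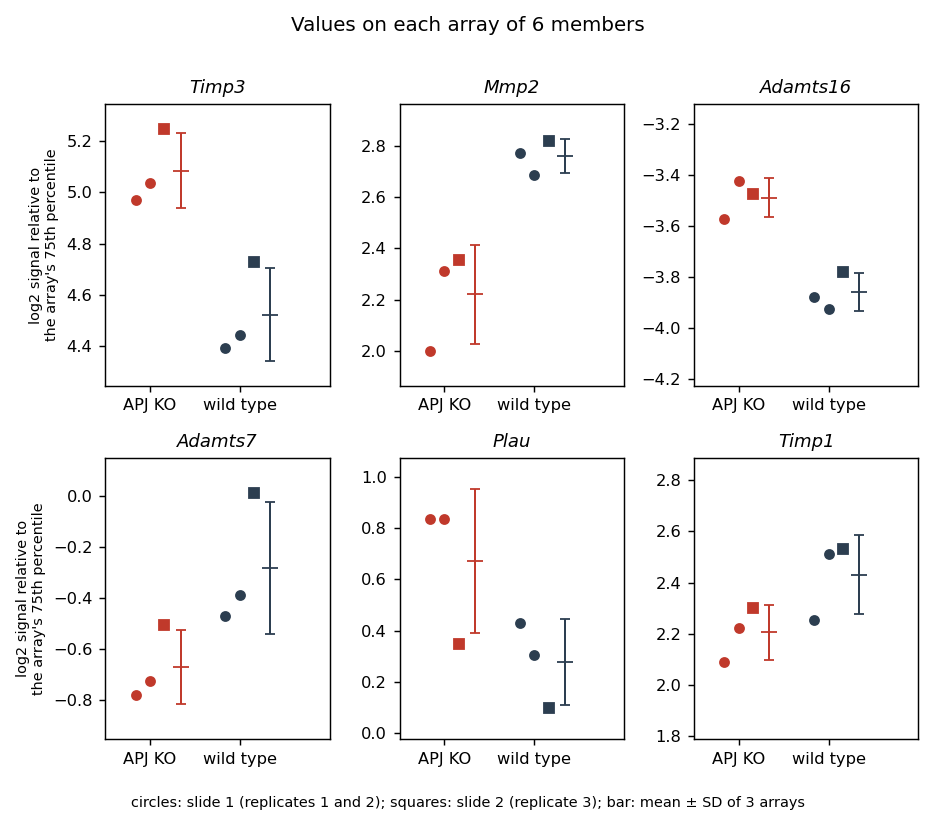
Levels of Timp3, Mmp2, Adamts16, Adamts7, Plau and Timp1 on each array (log2 intensity relative to the 75th percentile of the array), APJ KO left of wild type, circles being slide 1 and squares slide 2, with the mean and SD of 3 arrays. The genotypes are separated in Timp3, Mmp2, Adamts16 and Adamts7 and overlap in Plau and Timp1.

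The genes around the proteases were counted in 5 lists, drawn up with earlier results of these data known. In the list of plasminogen activation 0 of 10 tested genes passed, with a median difference of −0.017. The groups did not overlap for 3 of the 10, 30%, against 12.2% of everything tested. Plaur, the urokinase receptor, read 2.29, 2.52 and 2.24 in the APJ KO samples, against 1.95, 1.98 and 2.00 in the wild-type samples, without overlap. It differed by 0.37 ± 0.10 (limma adjusted p = 0.289), and Plgrkt, a plasminogen receptor, by −0.29 ± 0.087 (adjusted p = 0.355).

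Among protease activators, cofactors and clearance genes, 1 of 19 tested genes fell and 0 rose, with a median difference of 0.060. The gene that fell was Pcsk5, a proprotein convertase that cuts propeptides at basic residues. It read −1.46, −1.60 and −1.47 in the APJ KO samples, against −0.86, −0.89 and −0.93 in the wild-type samples, with no overlap. The difference was −0.61 ± 0.085 (SE; limma adjusted p = 0.0454). This call was lost with the replicate block, at an adjusted p of 0.0910, and when any single array was left out, at 0.114 to 0.212. With slide as a block it held at 0.0337, and 3 further genes of the list rose: Lrp1, Pcsk6 and Thbs1. Lrp1, the receptor through which cells take up metalloproteinases, read −0.45, −0.63 and −0.63 in the APJ KO samples, against −1.16, −1.26 and −1.33 in the wild-type samples. Its difference was 0.68 ± 0.098, with adjusted p values of 0.0526 with genotype alone and 0.0321 with slide as a block. Pcsk6, another proprotein convertase, read 3.71, 3.69 and 3.87 in the APJ KO samples, against 3.13, 3.096 and 3.35 in the wild-type samples, and differed by 0.56 ± 0.11 (adjusted p = 0.116, or 0.0299 with slide as a block). Thbs1, a matrix protein that binds Mmp2 and Mmp9, named after its values were seen, differed by 0.66 ± 0.14 (adjusted p = 0.158, or 0.0353 with slide as a block). All 4 genes, picked by small p or after their values were seen, separated the genotypes completely. In the whole list 5 of the 19 tested genes did, 26.3%, against 12.2% of everything tested. With the replicate block 0 genes of the list passed.

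Of the other ADAM and ADAMTS family genes 8 of 20 were tested and 0 passed, with a median difference of 0.017. Adamtsl1, a secreted ADAMTS-like protein without a protease domain, read −2.88, −2.39 and −2.80 in the APJ KO samples, against −1.70, −1.88 and −2.16 in the wild-type samples, a difference of −0.78 ± 0.17 (SE; adjusted p = 0.174). Adamtsl2 differed by 0.50 ± 0.14 (adjusted p = 0.317) and Adam8 by 0.26 ± 0.17 (adjusted p = 0.954). Of the matrix substrates 0 of 27 tested genes passed, with a median difference of 0.050. Fn1 (fibronectin) passed with slide as a block, at a difference of 0.69 ± 0.11 (adjusted p = 0.0701 with genotype alone, 0.0192 with slide as a block), and did not with the replicate block (adjusted p = 0.0739). Comp differed by 0.74 ± 0.16 (adjusted p = 0.154) and Nid1, a basement membrane linker, by 0.38 ± 0.099 (adjusted p = 0.262). Comp is also made by cartilage. The summed chondrocyte marker signal was 2.55, 2.47 and 6.78 in the APJ KO samples, against 1.31 to 1.63 in the wild-type samples, with 3 of 6 markers detected on all arrays and the other 3 on some. The groups did not overlap in this sum, and its part in the Comp value was not tested. Among the AP-1 and Ets regulators, transcription factors that act on many metalloproteinase promoters, 0 of 15 tested genes passed, with a median difference of −0.0034. Of the AP-1 genes in this list, Fos, Fosb, Fosl2, Jun, Junb and Jund were each detected on all 6 arrays, and Fosl1 on 2.

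**Figure D4:**
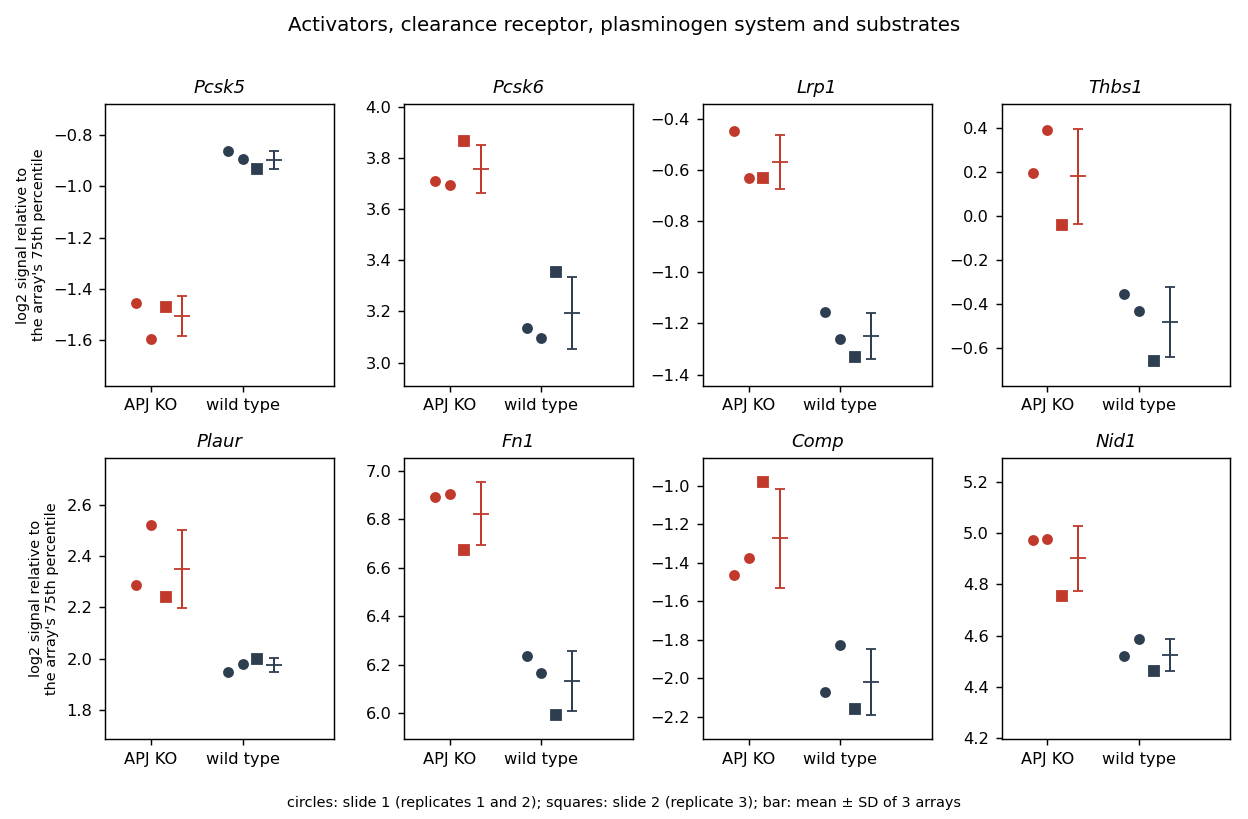
Levels of Pcsk5, Pcsk6, Lrp1, Thbs1, Plaur, Fn1, Comp and Nid1 on each array (log2 intensity relative to the 75th percentile of the array), APJ KO left of wild type, circles being slide 1 and squares slide 2, with the mean and SD of 3 arrays. The genotypes do not overlap in any of the 8 genes, Pcsk5 being lower and the other 7 higher in APJ KO. The genes were picked by small p within their lists or after their values were seen. Over all tested genes the groups did not overlap for 3 of 10 in the plasminogen list, 5 of 19 in the activator list and 7 of 27 matrix substrates. Of everything tested 12.2% did not overlap.

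Markers of other cell types were summed over each list, as linear intensity over the 75th percentile of the array. The 15 endothelial markers summed to 1337 to 1444 in APJ KO and 1299 to 1443 in wild type. Macrophage markers summed to 14.1 to 21.1 in APJ KO and 12.5 to 23.2 in wild type, with Cd163 detected on no array. The difference was above 0 for 9 of the 10 tested macrophage markers, with a median of 0.79. The groups did not overlap for 5 of the 10, 50%, against 12.2% of everything tested. With slide as a block 1 of the 10 rose past the threshold, where 1.2% of everything tested passed. The replicate block gave 1 too, and genotype alone 0. Only 6 macrophage markers were detected on all 6 arrays. The rest of the 10 entered the fit through 1 genotype alone, a filter that favours a higher value in that genotype. Neutrophil markers summed to 123.0 to 140.5 in APJ KO and 125.2 to 146.8 in wild type, with Ngp, Ltf and Cxcr2 on no array. Nearly all of that sum was Csf3r, at a log2 level of 6.86 to 7.08 in APJ KO and 6.90 to 7.14 in wild type. Of the 6 tested neutrophil markers 3 had a difference above 0 (Mpo 2.10, S100a8 1.34 and S100a9 0.67) and 3 below, down to −1.60, and none passed. The groups did not overlap for 1 of the 6, which was lower in APJ KO, 16.7% against 12.2% of everything tested. Platelet markers summed to 7.94 to 10.1 in APJ KO and 6.42 to 6.98 in wild type, without overlap, and the difference was above 0 for 7 of 7, with a median of 0.29. With slide as a block 1 of the 7 rose past the threshold, and 0 with genotype alone or the replicate block. Keratinocyte markers summed to 10.5 to 11.5 in APJ KO and 10.3 to 36.0 in wild type, with the highest in wild type replicate 3. Their difference was below 0 for 7 of the 7 tested, with a median of −1.28. As in the macrophage list, fewer neutrophil and keratinocyte markers, 5 and 6, were detected on all 6 arrays than were tested. Platelets also carry Thbs1, and macrophages Plau, and the part of these cells in the values above was not tested.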

How the data were processed

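RNA of sorted skin endothelial cells was hybridised to 6 Agilent arrays of 1 colour, 3 of APJ KO and 3 of wild-type samples, grouped by the genotype label. The deposited scanner files hold a background-subtracted and detrended Cy3 intensity per spot, which per the file headers came from Agilent Feature Extraction (version 10.7.3.1), with no normalisation across arrays. The table of values that the authors deposited is that intensity times a constant for each array (2.29 to 3.69). Of 59305 spots per array that were not controls, 126 to 179 flagged as outliers were left out, and none was saturated. Intensities were taken to log2, the 75th percentile of each array was subtracted, spots of 1 of the 55681 probes were averaged, and each symbol was represented by its brightest probe. Symbols came from RefSeq accessions, which named 47.4% of the probes. Genes detected on all 3 arrays of at least 1 group entered a limma fit (version 3.58.1, R 4.3.3) with genotype as the only term, with two-sided p-values adjusted by the Benjamini-Hochberg method over all 24243 features. The steps were tested on simulated data. The number of arrays limits the precision.

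The members and lists were chosen with earlier results of these data known. Fitted differences with full statistics were to be given for members that passed the threshold, had an unadjusted p under 0.05, differed by at least 1 on the log2 scale, or were detected on all arrays of 1 group and none of the other, along with up to 3 genes per further list by smallest p or, for markers, highest signal, and Aplnr. This took 4 members, and the values of 1 further gene it takes from the lists are not reported here. Timp1, Plau, Adamts1, Adamts4, Adamts15 and Thbs1, like the neutrophil, fibroblast and mural markers given with a difference, were added after their values were seen. Alternatives were quantile and median scaling, the deposited table, normexp correction, 2 other filters on dim probes, the mean over probes, slide and replicate number as blocks, a trended robust spread model, and leaving out each array. Replicate numbers come from the sample titles, with no label saying what they share. Same-numbered samples deviated from their group means together (correlations of 0.233, 0.152 and 0.649), and on slide 1 the differently numbered pairs did too (0.279 and 0.358).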

Additional observations from a re-analysis of the deposited data

How the results depend on the processing

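No alternative reversed the difference of Timp3, Mmp2, Adamts16, Adamts7, Plau, Timp1, Adamts1, Adamts4, Adamts15 or Aplnr. Over these settings the Timp3 difference was 0.48 to 0.67 (limma adjusted p = 0.0317 to 0.708) and that of Mmp2 −0.61 to −0.43 (0.0933 to 0.698). Members called higher in APJ KO numbered 1 with slide as a block and 0 in every other fit, and 0 were called lower in any. Of all features, 90 were called higher and 45 lower. These counts were 190 and 101 with a slide block, 4 and 1 with the replicate block, 3 and 0 with no filter on dim probes, and 9 and 2 within slide 1. They were 11 to 46 and 2 to 27 when single arrays were left out, and 70 were lower with the trended robust model. The median member difference, −0.0034, was −0.048 within slide 1, 0.048 within slide 2, and −0.025 to 0.048 when single arrays were left out. For Aplnr, with a main difference of −1.69, the adjusted p was 0.188 with no filter (−1.69), 0.0780 with the replicate block (−1.69) and 0.0846 within slide 1 (−1.76). Leaving out single arrays gave −1.84 to −1.57. The replicate block also ended the Pcsk5 call and changed no call of a member. Normexp on the mean signal was not run, as the files used hold a median signal; that was used in its place, chosen after seeing the data. Signals near background limit what can be said of the 14 undetected members and of the dim Adamts16, Adamts15, Adamts18, Timp4, Mmp23, Mmp24 and Mmp28. The cause of these shifts was not tested.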
